A study of Rattus norvegicus with 10 samples.

Results

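The 41 G2 and mitosis genes described here encode the machinery of cell division: the cyclins and kinases that drive entry into mitosis, the spindle checkpoint, the kinetochores, the motors of the spindle, and the proteins that separate the daughter cells. They were chosen by name, and each is represented by the brightest probe set, on average over the 10 arrays, to which the annotation of the array gives that symbol alone. Under this rule 37 of the 41 were measured, of 14217 genes in all. Ndc80, Kif4a and Tpx2 had no probe set of their own, and the probe set of Anln also carries a second symbol, so these 4 have no value below. RNA was measured on Affymetrix rat arrays in lens explants from 3-day-old rats, 6 explants per assay, where an explant is the lens capsule with its attached epithelial cells. Every culture was first held overnight in 5 ng/mL FGF2 (the 0 hr samples), and 100 ng/mL was then given for 2, 4, 12, or 24 hr, with 2 arrays of biological duplicates at each of the 5 times. Explants kept at the low dose for matching hours are not among the 10 arrays, so the higher dose cannot be told apart from time in culture. The array numbers in the study's supplement place the 2 and 4 hr arrays in one run and the 12 and 24 hr arrays in another, with the 0 hr arrays outside both, so run and time can be told apart only for 4 hr against 2 hr and 24 hr against 12 hr.

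Genes of G2 and mitosis are transcribed in waves. In resting cells and in G1 their promoters are held silent by the DREAM complex, whose MuvB subunit Lin54 touches DNA at the cell cycle genes homology region (CHR), and later in the cycle MuvB carries B-Myb and FoxM1, which activate the same promoters together with the CCAAT-binding factor NF-Y. In the lens, epithelial cells divide mainly in a ring near the equator, and cells that turn into fibers leave the cycle under high FGF. The RNA of these genes in an explant therefore depends on how many of its cells are in or near mitosis as well as on how much each of them makes, and in bulk RNA fewer such cells and less RNA per cell cannot be told apart.

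Within hours of the higher dose 11 of the 37 genes rose at 2 hr (8.61% of all probe sets did) and 11 at 4 hr (11.9%), and none fell. On both 2 hr arrays 35 of the 37 lay above both 0 hr arrays, against 28.3% of all probe sets, and the cyclin B1 gene Ccnb1 had a log2 change of 0.97 at 2 hr and 1.00 at 4 hr (1.95-fold and 2.00-fold). At 12 hr none was called (median log2 change 0.02), and 23 of the 37 genes were lower late (12 and 24 hr) than early (2 and 4 hr), against 19.3% of all probe sets. At 24 hr the replicates parted, and of the 3 genes called up against 0 hr (Racgap1, Plk1 and Ube2c, where 9.29% of all probe sets rose) Racgap1 was also called against 12 hr. In limma over 31042 probe sets, an adjusted p (Benjamini-Hochberg) under 0.05 made a call. Log2 changes are given with their standard error (SE) from that fit, in which each time has n = 2 arrays. Levels are RMA intensities on a linear scale, and RMA, the robust multichip average, puts all arrays on a common distribution.

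**Figure D1:**
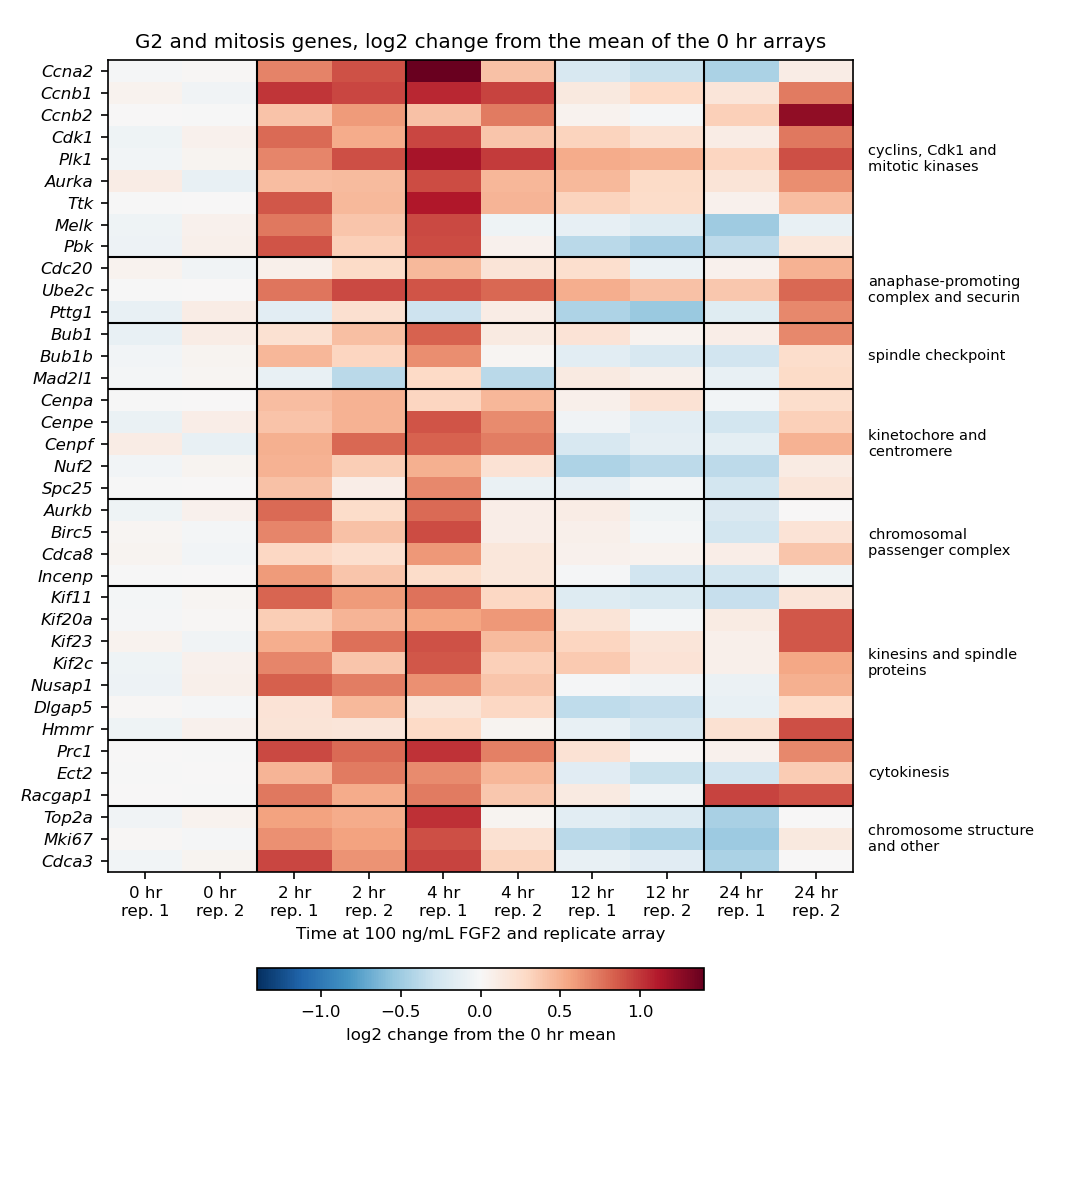
Heat map of the 37 measured genes (rows, grouped by role) on the 10 arrays (columns, by time at 100 ng/mL FGF2 and replicate), colored by log2 change from the mean of the 0 hr arrays. The 2 hr arrays and 4 hr replicate 1 are red for most genes (medians of 0.56, 0.47 and 0.82), the 12 hr arrays and 24 hr replicate 1 are pale (medians of 0.05, −0.05 and −0.10), and 24 hr replicate 2 is red again (median of 0.39).

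The CHR and CCAAT letters, known from other G2 genes, were looked for in the promoters of the group. Sequences of 300 bases, from 250 before to 50 after the start of the gene, were found for 34 of the 41 members in RefSeq (rat assembly GRCr8). The CHR was searched as TTTGAA or TTCGAA and the CCAAT box as CCAAT, each on both strands. A CHR and a CCAAT box can share at most 1 base. A CHR was found in 24 of the 34 promoters (70.6%), against 19.7% of all 33469 promoters of the table, and a CCAAT box in 25 (73.5%), against 37.5%. Both stood together in 19 of the 34 (55.9%), against 7.95% of all promoters. Of the 29 TTTGAA matches 24 read in the direction of the gene (TTCGAA reads the same on both strands), and 23 of the 34 promoters had a CHR of either spelling between 100 bases before the start and the end of the window. Among genes of DNA replication and the G1/S transition, 7 of 34 promoters (20.6%) held a CHR and 61.8% a CCAAT box. A match is a description of the letters and not evidence of binding.

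The promoters of 6 members show the range of the group over the 120 bases before the start of the gene, with CHR and CCAAT letters (also read from the other strand, as TTCAAA and ATTGG) in capitals. Prc1 and Ccnb2 have the common arrangement of CCAAT boxes followed by a CHR, and Cdk1 has CHR and CCAAT letters each more than once. Top2a carries both on the other strand, and Ccnb1 and Cdca3 have CCAAT boxes and no match to the CHR spellings searched. Other spellings of the CHR were not searched. In order they lie at chr1:143659361-143659480 (+ strand), chr8:79981659-79981778 (− strand), chr20:19265173-19265292 (+ strand), chr10:84473094-84473213 (− strand), chr2:33655226-33655345 (− strand) and chr4:159321083-159321202 (+ strand) of GRCr8.
Prc1: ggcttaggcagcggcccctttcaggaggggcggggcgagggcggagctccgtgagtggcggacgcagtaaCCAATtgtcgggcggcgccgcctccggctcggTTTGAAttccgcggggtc
Ccnb2: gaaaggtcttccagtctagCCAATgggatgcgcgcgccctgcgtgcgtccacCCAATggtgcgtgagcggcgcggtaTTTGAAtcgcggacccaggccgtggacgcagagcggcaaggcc
Cdk1: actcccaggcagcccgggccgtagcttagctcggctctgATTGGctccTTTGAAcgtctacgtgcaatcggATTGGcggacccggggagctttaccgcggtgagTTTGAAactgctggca
Top2a: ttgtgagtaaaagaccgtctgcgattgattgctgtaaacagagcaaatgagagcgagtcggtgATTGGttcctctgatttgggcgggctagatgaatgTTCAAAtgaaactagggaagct
Ccnb1: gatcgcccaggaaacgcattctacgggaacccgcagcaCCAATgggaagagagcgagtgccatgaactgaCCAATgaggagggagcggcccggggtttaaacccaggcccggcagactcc
Cdca3: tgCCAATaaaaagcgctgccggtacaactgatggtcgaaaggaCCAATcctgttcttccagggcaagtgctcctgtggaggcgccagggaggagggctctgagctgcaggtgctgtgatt

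Changes in members with and without a CHR match in the window can be set side by side, but their difference was not tested. The 21 measured members with a CHR had a median log2 change of 0.54 at 2 hr, 0.52 at 4 hr, and −0.37 late against early, and the 10 without one had medians of 0.49, 0.59, and −0.52. Genes with large changes stood on both sides: Ccnb1 and Cdca3 had no CHR match in this window, and Plk1 and Prc1 had one. For Ccna2 and Ube2c, also among the largest changes, no promoter sequence was found.

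**Figure D2:**
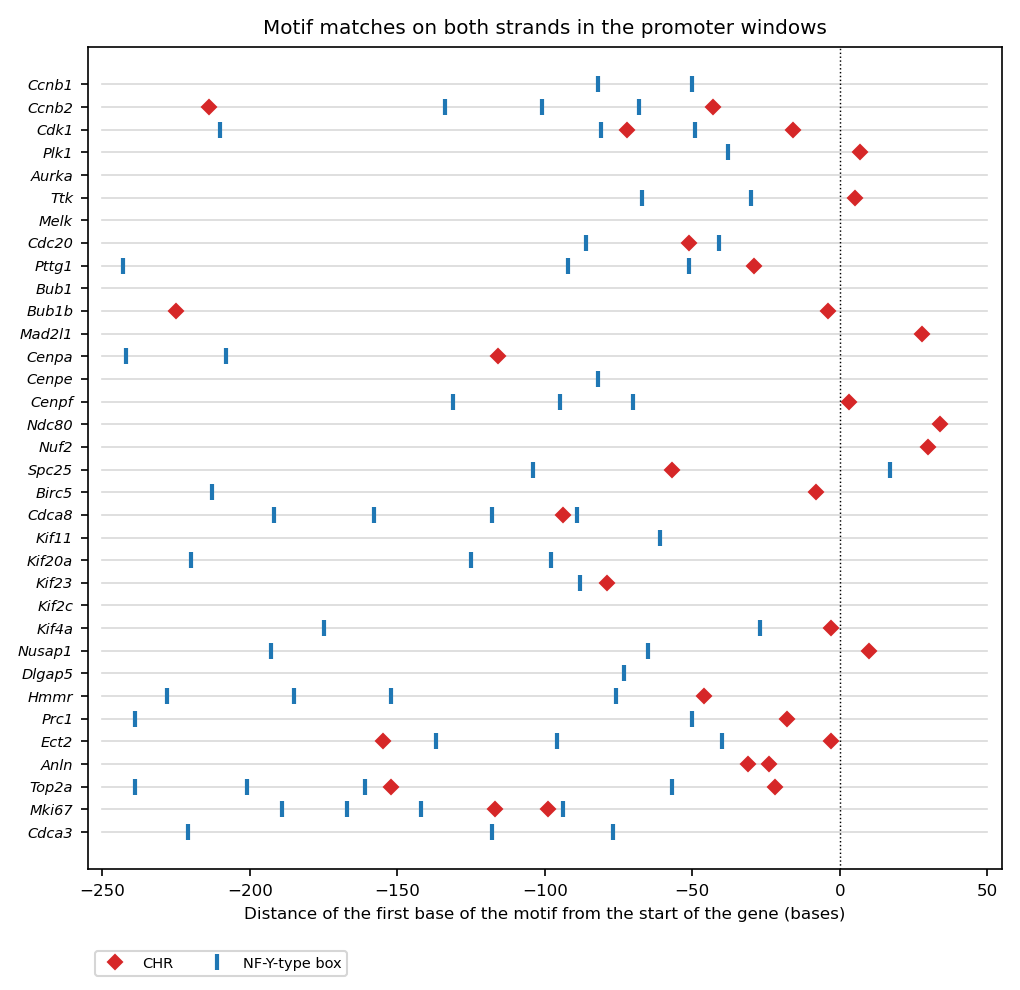
Positions of CHR matches (red diamonds) and of the CCAAT boxes to which NF-Y binds (blue ticks), on both strands, in the promoter windows of the 34 members with a RefSeq sequence (rows), by distance in bases from the start of the gene. Of the 34 promoters, 23 have a CHR match within 100 bases before the start or after it, and CCAAT boxes are spread farther upstream.

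Cyclins B1, B2 and A2 and their kinase Cdk1 trigger mitosis, and Plk1, Aurka and Ttk act beside them in centrosome maturation, spindle assembly and the checkpoint. Ccnb1 had intensities of 538 and 500.3 at 0 hr, 1040.2 and 989 at 2 hr, 1079 and 1002 at 4 hr, 571 and 628 at 12 hr, and 583 and 858 at 24 hr. Every 2 and 4 hr array stood above every other array. The rise was 0.97 at 2 hr (SE 0.16, adjusted p = 0.0050) and 1.00 at 4 hr (SE 0.16, adjusted p = 0.0026), and the fall late against early was −0.66 (SE 0.11, adjusted p = 0.0019). At the dimmer of its 2 probe sets Ccnb1 changed less, by 0.41 and 0.60, and was not called. Cdk1, the kinase of these cyclins, had 1050.1 and 1135 at 0 hr, 1889 and 1560.1 at 2 hr, 2094 and 1427 at 4 hr, 1358 and 1268 at 12 hr, and 1175 and 1826 at 24 hr. All 8 later arrays exceeded both 0 hr arrays, but the replicates at 4 and 24 hr lay far apart and no contrast was called (0.65 at 2 hr and 0.66 at 4 hr, SE 0.23).

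Plk1, the polo-like kinase needed for mitotic entry and spindle assembly, had 275 and 290.1 at 0 hr, 455 and 526 at 2 hr, 627 and 557 at 4 hr, 406 and 398 at 12 hr, and 348 and 528 at 24 hr. No later array reached down to the 0 hr arrays. Plk1 rose by 0.79 at 2 hr (SE 0.18, adjusted p = 0.017), by 1.07 at 4 hr (adjusted p = 0.0029), and by 0.60 at 24 hr (adjusted p = 0.043), while late against early it fell by 0.37 (SE 0.12, adjusted p = 0.042). Ccna2, cyclin A2, had 348 and 356 at 0 hr, 568 and 653 at 2 hr, 916 and 468 at 4 hr, 300.4 and 282 at 12 hr, and 259 and 378 at 24 hr. All late arrays stood below all early ones, and its late against early change of −1.06 (SE 0.20, adjusted p = 0.0029) was the largest fall of the group. Against 0 hr Ccna2 was called at 4 hr (0.90, SE 0.28, adjusted p = 0.0497), where the difference of its 4 hr replicates (−0.97, replicate 2 over replicate 1) was larger than the change.

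Ccnb2, cyclin B2, had 724 and 721 at 0 hr, 951 and 1096 at 2 hr, 957 and 1194 at 4 hr, 749 and 714 at 12 hr, and 907 and 1707 at 24 hr, and was called in no contrast. Its highest array was 24 hr replicate 2. Aurka (0.69, adjusted p = 0.027) and Ttk, also known as Mps1 (0.80, adjusted p = 0.030), rose at 4 hr. The dimmer probe set of Ttk was called up at both 2 hr (1.27, adjusted p = 0.0039) and 4 hr (1.21, adjusted p = 0.0030). It also fell late against early (−0.87, adjusted p = 0.0014). Melk and Pbk, kinases enriched in dividing cells, were not called against 0 hr, but fell late against early by 0.72 and 0.81 (adjusted p = 0.019 and 0.012). Of the 9 genes of this role, 2 were called up at 2 hr and 5 at 4 hr, where 8.61% and 11.9% of all probe sets were. None was called at 12 hr, Plk1 alone at 24 hr, and 6 fell late against early, where 19.3% of all probe sets fell.

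**Figure D3:**
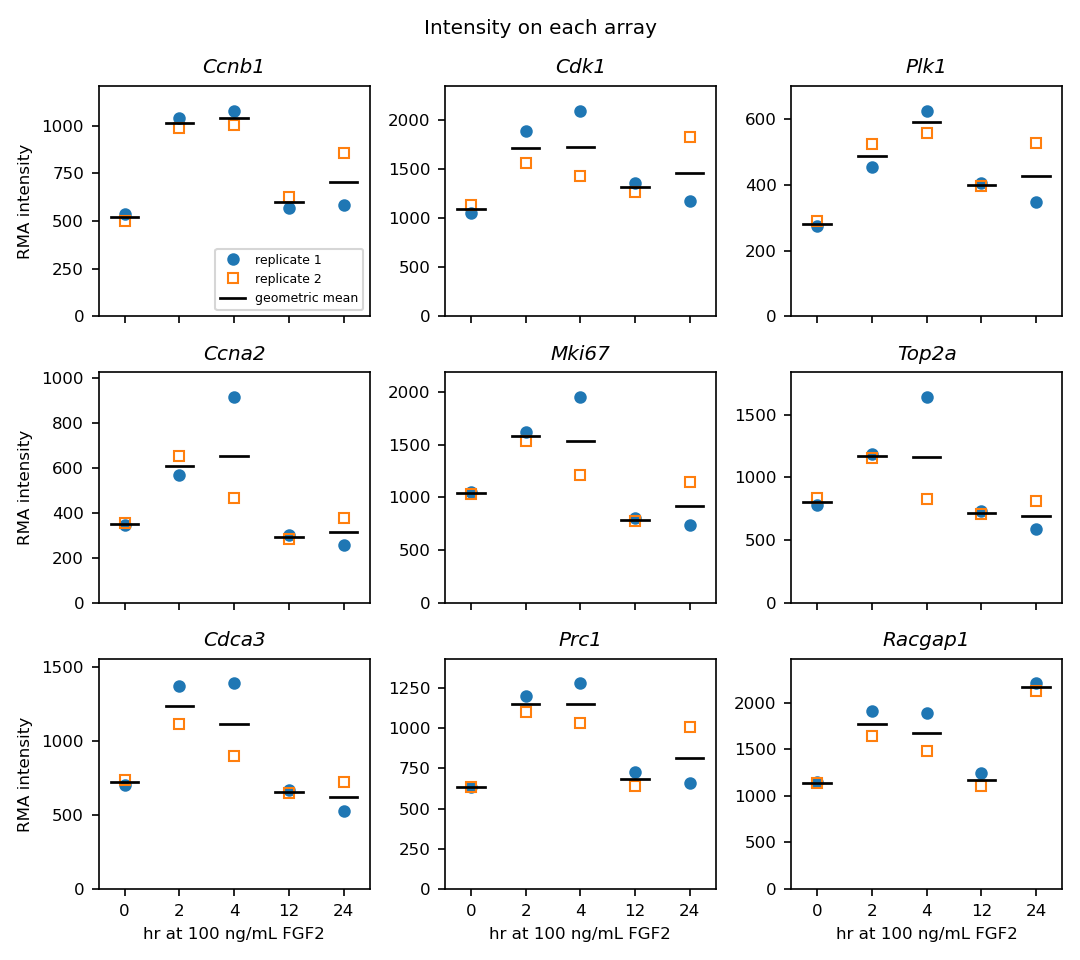
RMA intensity (linear axis from 0) on each array for 9 genes by time at 100 ng/mL FGF2, with replicate 1 as filled circles, replicate 2 as open squares, and the geometric mean as a bar. Ccnb1 and Prc1 stand high on all 2 and 4 hr arrays, the replicates of Ccna2, Top2a and Mki67 part at 4 hr, and Racgap1 alone is highest on both 24 hr arrays (2207 and 2129).

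The anaphase-promoting complex ends mitosis by marking securin and the cyclins for destruction. Its ubiquitin-conjugating enzyme Ube2c had 997 and 1010.3 at 0 hr, 1687 and 1911 at 2 hr, 1851 and 1753 at 4 hr, 1426 and 1329.7 at 12 hr, and 1301 and 1751 at 24 hr. No later array overlapped the 0 hr arrays. Ube2c rose by 0.84 at 2 hr (SE 0.14, adjusted p = 0.0047), by 0.84 at 4 hr (adjusted p = 0.0028) and by 0.59 at 24 hr (adjusted p = 0.017), and fell by 0.32 late against early (adjusted p = 0.030). The activator Cdc20 was called in no contrast at its brightest probe set (0.17 at 2 hr and 0.32 at 4 hr), but 2 of its 4 dimmer probe sets were called at 2 hr (0.42 and 0.74). Pttg1, which encodes securin, the inhibitor of separase, had 1294 and 1505 at 0 hr, 1262 and 1631 at 2 hr, 1145 and 1494 at 4 hr, 1037 and 972 at 12 hr, and 1244 and 2222 at 24 hr. Its 2 and 4 hr arrays overlapped those of 0 hr, and it was called in no contrast.

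Bub1, Bub1b and Mad2l1 hold the spindle checkpoint, which delays anaphase until all kinetochores are attached. None of the 3 was called against 0 hr, with log2 changes of 0.32, 0.38 and −0.24 at 2 hr and of 0.47, 0.34 and −0.05 at 4 hr, and only Bub1b fell late against early (−0.46, SE 0.15, adjusted p = 0.038). Mad2l1 was the only member below both 0 hr arrays on both 2 hr arrays, at its brightest probe set. A second probe set of Mad2l1 had 227 and 252 at 0 hr, 369 and 374 at 2 hr, 459 and 337 at 4 hr, 268 and 252 at 12 hr, and 282 and 344 at 24 hr. It was called up at 2 hr (0.64) and 4 hr (0.72) and down late against early (−0.43), and the remaining probe set was not called (−0.06 and 0.03 at 2 and 4 hr), so the probe sets of this gene disagree.

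Kinetochore and centromere genes rose at 4 hr in 3 of 5 cases, where 11.9% of all probe sets rose. Cenpf, a large kinetochore protein that peaks in G2, had 567 and 492 at 0 hr, 746 and 919.8 at 2 hr, 939 and 867 at 4 hr, 453 and 483 at 12 hr, and 479.7 and 738 at 24 hr. Its early arrays stood above all others, and it rose by 0.65 at 2 hr (SE 0.19, adjusted p = 0.049) and by 0.77 at 4 hr (adjusted p = 0.019). Cenpe, the kinetochore motor, rose by 0.77 at 4 hr (SE 0.18, adjusted p = 0.014). Cenpa, the histone H3 variant of centromeres, rose by 0.46 at 2 hr (SE 0.11, adjusted p = 0.026) and by 0.38 at 4 hr (adjusted p = 0.042). It was the dimmest measured member, with intensities of 37.3 to 53.6 over all arrays. Late against early these 3 genes and Nuf2, a subunit of the Ndc80 complex that binds microtubules, fell by 0.30 to 0.71. Spc25, another subunit of that complex, was not called in any contrast (−0.33 late against early). In the chromosomal passenger complex, which corrects faulty attachments, the scaffold Incenp rose at 2 hr at its brightest probe set (0.49, SE 0.12, adjusted p = 0.025). Incenp, the kinase Aurkb and survivin (Birc5) fell late against early by 0.50, 0.52 and 0.53, and borealin (Cdca8) was not called (−0.17). The 2 dimmer probe sets of Incenp were not called at 2 hr (0.12 and 0.10) or late against early (−0.01 and 0.06). With the mean of its probe sets Incenp was called in neither contrast (0.24 at 2 hr, adjusted p = 0.16, and −0.15 late against early, adjusted p = 0.15).

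Among the spindle genes, Kif11, the motor that pushes the poles apart, had 406 and 423 at 0 hr, 730.2 and 628 at 2 hr, 699 and 505 at 4 hr, 365 and 357 at 12 hr, and 330.2 and 465 at 24 hr. The early arrays were the highest here too. Kif11 and Nusap1, which stabilizes microtubules near chromosomes, rose at 2 hr by 0.71 (SE 0.19, adjusted p = 0.033) and 0.77 (SE 0.17, adjusted p = 0.018). Both fell late against early, by 0.75 and 0.55, as did Dlgap5 (−0.40), a stabilizer of kinetochore fibers. The motors Kif20a, Kif23 and Kif2c and the spindle protein Hmmr were not called in any contrast at their brightest probe sets, with changes of 0.17 to 0.64 at 2 hr. Hmmr, the receptor for hyaluronan that also binds spindle microtubules, had 371 and 405 at 0 hr, 439.7 and 435 at 2 hr, 472 and 398 at 4 hr, 361 and 332 at 12 hr, and 451 and 722 at 24 hr, with one 24 hr array far above the rest. Its dimmer probe set had 156 and 162 at 0 hr, 215 and 224 at 2 hr, 213 and 188 at 4 hr, 129.9 and 117 at 12 hr, and 152 and 197 at 24 hr. There Hmmr was highest at 2 hr, rose at 2 hr (0.46, adjusted p = 0.043) and fell late against early (−0.52, adjusted p = 0.0023), so its probe sets disagree. A dimmer probe set of Kif2c rose by 0.84 at 2 hr and 0.90 at 4 hr.

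Cytokinesis is represented by 3 genes. Prc1, which bundles the microtubules of the spindle midzone, had 636 and 632 at 0 hr, 1203 and 1101 at 2 hr, 1278 and 1031 at 4 hr, 729 and 642 at 12 hr, and 659 and 1009 at 24 hr. Its early arrays stood above all others, with rises of 0.86 at 2 hr (SE 0.19, adjusted p = 0.016) and 0.86 at 4 hr (adjusted p = 0.011) and a fall of −0.62 late against early (adjusted p = 0.0060). Racgap1, a GTPase-activating protein that joins Kif23 in the centralspindlin complex, had 1148 and 1139 at 0 hr, 1906 and 1645 at 2 hr, 1892 and 1482 at 4 hr, 1247 and 1102 at 12 hr, and 2207 and 2129 at 24 hr. It was high early, back near its 0 hr level at 12 hr, and higher on both 24 hr arrays than on any other. Racgap1 rose by 0.63 at 2 hr (SE 0.13, adjusted p = 0.013), by 0.55 at 4 hr (adjusted p = 0.017), and by 0.92 at 24 hr (adjusted p = 0.0017). Ect2, the exchange factor for RhoA that Racgap1 recruits, had 1226 and 1228 at 0 hr, 1710.4 and 2039 at 2 hr, 1939 and 1687 at 4 hr, 1096 and 986 at 12 hr, and 1022 and 1565 at 24 hr. Its 24 hr arrays lay on either side of the 0 hr arrays, and it was not called against 0 hr (0.61 and 0.56 at 2 and 4 hr, and 0.04 at 24 hr) and fell late against early by 0.68 (SE 0.13, adjusted p = 0.0035).

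Top2a untangles sister chromatids, Mki67 encodes the proliferation antigen Ki-67 that coats mitotic chromosomes, and Cdca3 is a partner of the degradation machinery that promotes mitotic entry. Mki67 had 1053 and 1033 at 0 hr, 1621 and 1536 at 2 hr, 1951 and 1209 at 4 hr, 805 and 771 at 12 hr, and 735 and 1146 at 24 hr. Every early array was above, and both 12 hr arrays were below, those of 0 hr. Mki67 was not called against 0 hr (0.60, 0.56, −0.40 and −0.19 at 2, 4, 12 and 24 hr, SE 0.24) and fell late against early by 0.87 (SE 0.17, adjusted p = 0.0035). Top2a had 778 and 834 at 0 hr, 1190.2 and 1153 at 2 hr, 1641 and 826 at 4 hr, 730.0 and 705 at 12 hr, and 589 and 808 at 24 hr. One 4 hr array was thus at the 0 hr level and the other above every other array, and only the fall of 0.73 late against early was called (SE 0.19, adjusted p = 0.016). Cdca3 had 701 and 739 at 0 hr, 1374 and 1114 at 2 hr, 1389 and 895 at 4 hr, 668 and 646 at 12 hr, and 529.6 and 723 at 24 hr. Its early arrays did not overlap the others, and Cdca3 rose at 2 hr (0.78, SE 0.21, adjusted p = 0.038) and fell late against early (−0.88, SE 0.15, adjusted p = 0.0018).

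Counted over the group, the first comparison asks how the genes stood in the early response phase. At 2 hr 11 of the 37 rose and none fell, with a median log2 change of 0.54, where 8.61% of all probe sets rose, 8.88% fell and the median was −0.003. At 4 hr 11 rose and none fell, with a median of 0.53, against 11.9% of all probe sets rising and 11.9% falling. At an unadjusted p under 0.05 in the same limma fit 22 genes were up at 2 hr and 21 at 4 hr, with none down. The share of all probe sets at unadjusted p was not counted. Both 2 hr arrays stood above both 0 hr arrays for 35 genes (28.3% of all probe sets), and both 4 hr arrays did so for 29 (28.8% of all probe sets). Between 4 hr and 2 hr no gene was called by limma or by the methods' analysis of variance (1, Incenp at −0.28, at unadjusted p), where 2.24% of all probe sets rose and 1.5% fell. The members' differences lay between −0.28 and 0.33.

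These early counts rest on few arrays. Without 0 hr replicate 1 or without 0 hr replicate 2, 2 genes were called at 2 hr, Ccnb1 and Ube2c. At 4 hr these omissions left 3 (Ccnb1, Plk1 and Ube2c) and 4 (Cenpe besides). Without 2 hr replicate 1 the 2 hr calls were 3 (Ccnb1, Plk1 and Ube2c), and without 2 hr replicate 2 they were 6. Without 4 hr replicate 1 the 4 hr calls were 4 (Ccnb1, Plk1, Ube2c and Cenpa), and without 4 hr replicate 2 they were 24. Without either 24 hr array 17 genes were called at each of these times. The rises of Ccnb1 and Ube2c at 2 and 4 hr and of Plk1 at 4 hr were called under every omission, and the median over the genes stayed between 0.47 and 0.58 at 2 hr and between 0.31 and 0.82 at 4 hr.

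In the late phase few genes were called against 0 hr. At 12 hr none of the 37 genes was called by limma, where 19.0% of all probe sets were called in either direction. The unadjusted count was 4, with Plk1 (0.51) and Ube2c (0.46) up and Nuf2 (−0.40) and Dlgap5 (−0.34) down, and 9 genes passed the methods' analysis of variance at unadjusted P. Both 12 hr arrays stood above both 0 hr arrays for 12 genes, against 34.4% of all probe sets, and below both for 16, against 30.7%. Among those below were Ccna2, Cenpf, Kif11, Top2a and Mki67. At 24 hr 3 genes rose (Racgap1, Plk1 and Ube2c), where 9.29% of all probe sets rose and 10.9% fell, with a median over the genes of 0.17, and 15 genes stood above 0 hr on both arrays, against 34.9% of all probe sets, and 2 below (Melk and Incenp), against 29.9%. Without 24 hr replicate 2 or either 0 hr array only Racgap1 was called at 24 hr, and without 24 hr replicate 1 the count was 9. Without either 24 hr array Plk1 and Ube2c were called at 12 hr.

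The late time points against the early ones, with 4 arrays on each side, gave the most calls. Of the 37 genes 23 fell and none rose (none at unadjusted p), with a median of −0.46, where 19.3% of all probe sets fell, 19.9% rose, and their median was 0.03. All 4 late arrays lay below all 4 early arrays for 15 genes, against 15.0% of all probe sets. The falls ran from 0.30 (Cenpa) to 1.06 (Ccna2), and only Mad2l1 (0.24) and Hmmr (0.03) had values above 0. By role the falls were 6 of 9 cyclins and kinases, 4 of 5 kinetochore genes, 3 of 4 passenger complex genes, 3 of 7 spindle genes, 2 of 3 cytokinesis genes, all 3 of chromosome structure, and 1 of 3 each of the anaphase-promoting complex and the checkpoint. The 14 genes that were not called were Ccnb2, Cdk1, Aurka, Cdc20, Pttg1, Bub1, Mad2l1, Spc25, Cdca8, Kif20a, Kif23, Kif2c, Hmmr and Racgap1. Without either 12 hr array 15 genes fell and without 24 hr replicate 1 14 did, and 14 of the 23 calls held under every omission of 1 array. Without 4 hr replicate 1 17 fell and Mad2l1 rose (0.40). By mean level at the brightest probe set 16 genes were highest at 2 hr and 16 at 4 hr. Mad2l1 was highest at 12 hr, the other 4 genes (Ccnb2, Pttg1, Hmmr and Racgap1) at 24 hr, and none at 0 hr.

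**Figure D4:**
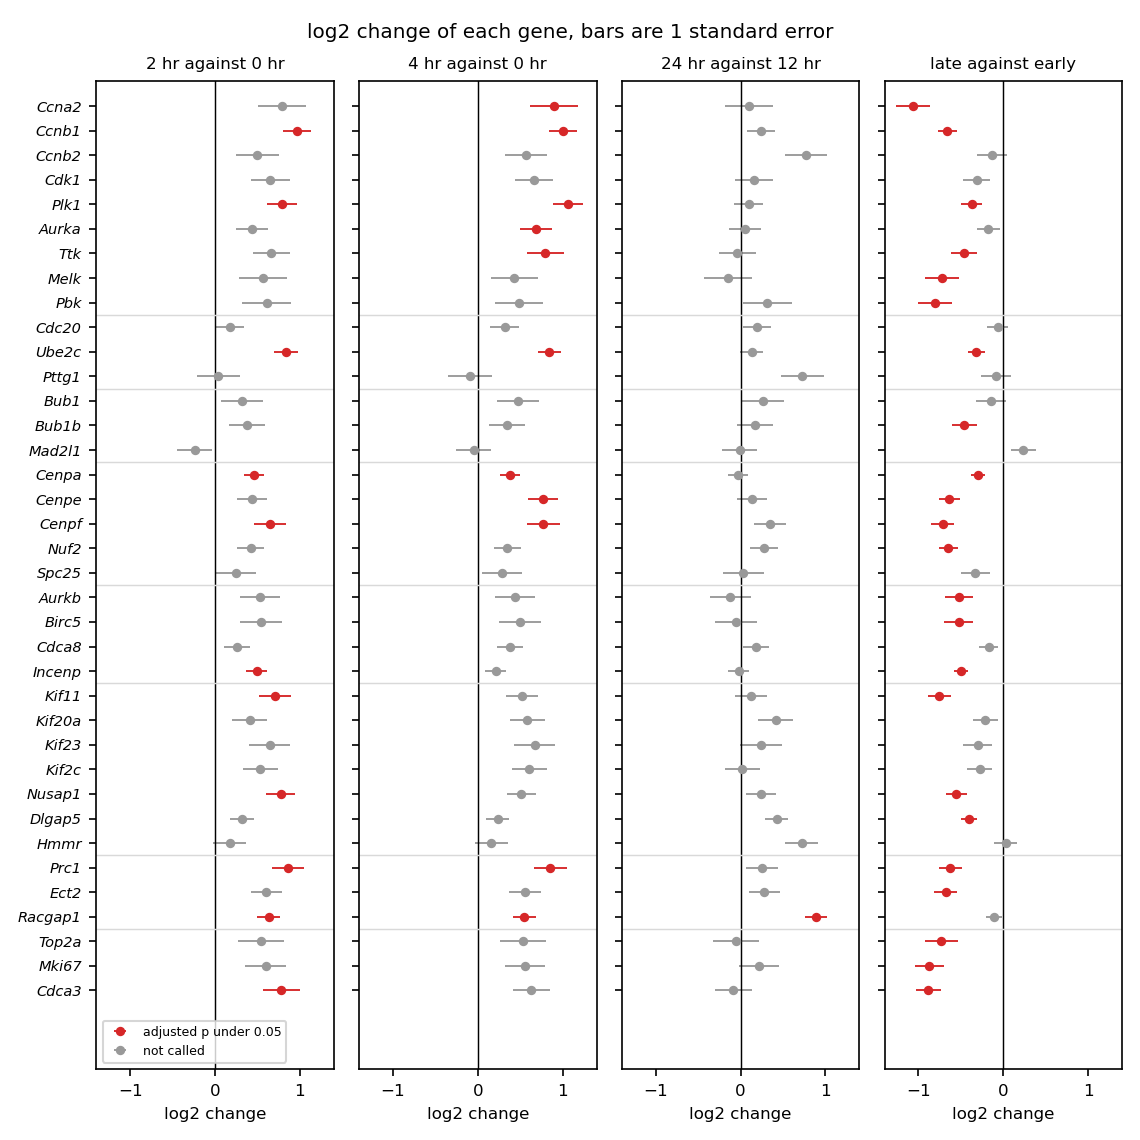
log2 change of each of the 37 genes (rows, grouped by role) at 2 hr against 0 hr, 4 hr against 0 hr, 24 hr against 12 hr, and late (12 and 24 hr) against early (2 and 4 hr), with bars of 1 standard error. Red points passed an adjusted p under 0.05: 11 rises at 2 hr, 11 at 4 hr, 1 at 24 hr against 12 hr (Racgap1) and 23 falls late against early.

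For 24 hr against 12 hr, the only late comparison within a run of arrays, Racgap1 was the single call: its rise was 0.89 (SE 0.13, adjusted p = 0.0093), where 2.22% of all probe sets rose and 2.12% fell. The dimmer probe set of Racgap1 had 306 and 289 at 24 hr against 187 and 167 at 12 hr, and its rise of 0.75 was not called there, while against 0 hr it was called at 24 hr (0.81). Without 24 hr replicate 2 or 12 hr replicate 2 Racgap1 was no longer called (0 genes). Without 24 hr replicate 1 it was not called either (0.86), and the calls were Ccnb2 (1.22), Pttg1 (1.15), Kif20a (0.80) and Hmmr (1.06).

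Those genes mark how far the 24 hr replicates stood apart. Replicate 2 was higher than replicate 1 in 36 of the 37 genes, with Racgap1 the exception (−0.05), by a median of 0.50 on the log2 scale, and 13 genes differed by over 1.5-fold, against 1.98% of all probe sets. Ccnb2 differed most (1707 and 907 in replicates 2 and 1), followed by Pttg1 (2222 and 1244), Kif23 (1037 and 595), Kif20a (807 and 477) and Hmmr (722 and 451). At 4 hr the order was the other way, with replicate 1 higher in 32 genes, by a median of 0.45, and 13 genes over 1.5-fold apart, against 6.01% of all probe sets. The widest gaps there were those of Top2a (1641 and 826 in replicates 1 and 2), Melk (1089 and 549.9) and Ccna2 (916 and 468). At 0, 2 and 12 hr no gene differed by over 1.5-fold between replicates. Over all probe sets the median difference was 0.002 at 4 hr and 0.009 at 24 hr. Set against the 0 hr mean, the arrays' medians over the 37 genes were 0.82 and 0.31 in 4 hr replicates 1 and 2, and −0.10 and 0.39 in 24 hr replicates 1 and 2.

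**Figure D5:**
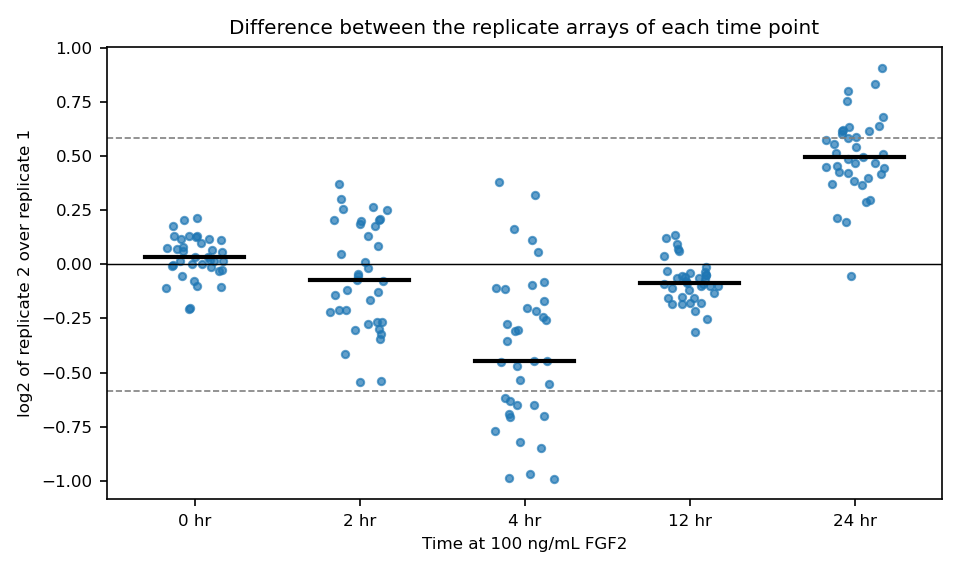
log2 of replicate 2 over replicate 1 for the 37 genes (points) at each time point, with the median as a black bar and dashed lines at 1.5-fold. The points lie mostly below 0 at 4 hr (median −0.45) and all but 1 above 0 at 24 hr (median 0.50), and within the dashed lines at 0, 2 and 12 hr.

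Most of the group moved together across the 10 arrays, as a description over arrays that share time points. Pearson's r of a gene with the mean of the other 36 had a median of 0.89 and was highest for Prc1 (0.98). It was lowest for Mad2l1 (−0.00), Pttg1 (0.32), Hmmr (0.51), Racgap1 (0.56) and Ccnb2 (0.59), the genes that stood highest at 12 or 24 hr at those probe sets. Of the 37 genes 12 have further probe sets, 17 in all. Counting a call at any of them, 16 genes rose at 2 hr and 16 at 4 hr, 3 genes rose at 24 hr, and 27 fell late against early.

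A measure of RNA quality and markers of other cell types also moved with time. The log2 ratio of the 5′ to the 3′ control probe set of Actb was −1.21 to −1.12 at 0 hr, −2.13 to −1.68 at 2 hr, −1.37 and −2.08 in 4 hr replicates 1 and 2, −1.43 to −1.30 at 12 hr, and −1.88 to −1.75 at 24 hr. The same ratio for GAPDH was −0.05 to 0.00 at 0 hr, −0.27 to −0.21 at 2 hr, and −0.12 to −0.06 at 12 hr. In 4 hr replicates 1 and 2 it was −0.17 and −0.30, and at 24 hr −0.14 to −0.13. At 4 hr the array with the higher mitotic genes had the ratio nearer 0 hr at both controls. The 24 hr arrays, whose mitotic genes differed, had similar ratios, and both 2 hr arrays had lower ratios than 0 hr and high mitotic genes. The summed intensity of 7 measured endothelial genes of 8 listed was 1696 to 2169 at 0 hr, 1849 to 1866 at 2 hr, 1336 to 1562 at 4 hr, 1205 to 1297 at 12 hr, and 999 to 1114 at 24 hr, and that of 8 macrophage and leukocyte genes was 273 to 384, 322 to 534, 392 to 457, 390.1 to 509, and 422 to 435. The sum of 7 fibroblast and mesenchyme genes was 9102 to 10989 at 24 hr and 11329 to 13446 on the other arrays. Most of it came from Pdgfra, at a brightness percentile of 99.6 over all probe sets. Whether the RNA of Pdgfra came from fibroblasts or from lens cells was not tested. Gene by gene these 7 moved in the direction of the mitotic genes, with a median log2 change of 0.53 at 2 hr (6 of 7 above 0, none called), 0.29 at 4 hr (Pdgfrb called, 0.52) and −0.38 late against early (all 7 below 0, with Col1a1 at −0.38, Col3a1 at −0.79 and Pdgfrb at −0.60 called). Among all probe sets 8.61% rose at 2 hr, 11.9% rose at 4 hr and 19.3% fell late against early. Retinal and pigment epithelial genes had median brightness percentiles of 16.7 and 24.9. Of the defining markers, Ptprc of leukocytes lay between 12.9 and 19.3 and Pecam1 of endothelium between 17.2 and 29.9 on all arrays, but Kdr and Tek, also endothelial, reached 640.1 and 1435. The 8 genes of lens epithelium, among them Pax6 and Cryaa, had a median brightness percentile of 99.3 over all probe sets, with Six3 lowest at 48.5. That of 10 measured lens fiber genes of 12 listed was 93.6. The part of RNA quality or of dividing cells of other types in the changes above was not tested.

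The rest of the G2 and mitosis program was read from a longer list. Of 71 others on a list of G2 and mitosis genes, 59 were measured: 15 rose and 1 fell at 2 hr, 17 rose and none fell at 4 hr, and 3 rose and 31 fell late against early, with medians of 0.39, 0.41 and −0.44. Of all probe sets 8.61% rose at 2 hr and 11.9% at 4 hr, and 19.3% fell late against early. The largest early rises were those of Kif18b, a motor that shortens astral microtubules (1.50 at 2 hr and 1.60 at 4 hr, SE 0.14), of Ccnf, the F-box protein cyclin F (1.35 and 1.03), of separase, Espl1 (0.99 at 2 hr), and of Pimreg (1.36 at 4 hr). Kif18b fell by 1.11 late against early and Arhgap11a by 1.13. Late rises were no more common here than among all probe sets. Of the 59, 4 (6.78%) were called up at 12 hr and 5 (8.47%) at 24 hr, against 8.94% and 9.29% of all probe sets. Late against early the 3 rises (5.08%) stood beside 19.9% of all probe sets. Downward calls numbered 5 at 12 hr and 3 at 24 hr, beside 10.02% and 10.9% of all probe sets. Pimreg also rose at 12 and 24 hr (1.09 and 1.10). Gtse1, a microtubule-binding protein also known as a regulator of p53, and Psrc1 rose at 12 hr (0.92 and 0.84) and 24 hr (0.96 and 1.06), and late against early by 1.40 and 1.43. Psrc1 was the one that fell at 2 hr (−0.62). The third late rise was that of the condensin gene Smc2 (0.71).

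Of the 20 measured regulators of mitotic transcription, Foxm1, the forkhead factor of the G2 genes, had a similar time course. It rose by 1.01 at 2 hr (SE 0.21, adjusted p = 0.014) and by 0.93 at 4 hr (adjusted p = 0.014) and fell by 0.84 late against early (adjusted p = 0.0024). The other rises at 2 hr were those of the repressors E2f7 (1.02) and E2f8 (0.88) and of the NF-Y subunit Nfyb (0.47), beside falls of Rbl2 (−0.51), the p130 subunit of DREAM, and Tfdp2 (−0.57). B-Myb (Mybl2) was not called (0.72 at 2 hr, 0.44 at 4 hr). Late against early 4 of the 20 rose, a share near the 19.9% of all probe sets, and 7 fell, where 19.3% of all probe sets did. E2f7 (−1.36), E2f8 (−1.23) and Lin54 (−1.08) fell most, and Rbl2 (0.76), Nfya (0.59), Tfdp2 (0.54) and E2f5 (0.54) rose. Lin54, which touches the CHR, fell by 1.41 at 12 hr (SE 0.09, adjusted p = 5.1e-05) and by 1.16 at 24 hr (adjusted p = 0.00010).

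Genes of DNA replication and the G1/S transition act earlier in the cycle. Of 36 measured, none rose at 2 or 4 hr and 1 (Ung, −0.56) and 2 (Hells, −0.88, and Cdt1, −0.55) fell, with medians of 0.00 and −0.16, beside 0.54 and 0.53 in the mitotic group. At 12 hr 14 of the 36 fell and at 24 hr 15 did, with medians of −0.54 and −0.61, beside 0.02 and 0.17, and none rose. Of all probe sets 10.02% fell at 12 hr and 10.9% at 24 hr, while 8.94% and 9.29% rose. At 2 and 4 hr 8.88% and 11.9% of all probe sets fell, and 8.61% and 11.9% rose. The largest falls at 12 hr were those of Mcm4 (−1.14), a subunit of the replicative helicase, of the primase gene Prim1 (−1.12) and of Dscc1 (−1.09). The difference between the lists was not tested. The 13 CDK inhibitors and their D cyclin and kinase partners went both ways. Of them 1, 2, 4 and 4 rose at 2, 4, 12 and 24 hr (8.61%, 11.9%, 8.94% and 9.29% of all probe sets). At the same times 2, 4, 5 and 4 fell (8.88%, 11.9%, 10.02% and 10.9% of all probe sets). Cdkn2b (p15) rose at 2, 4, 12 and 24 hr by 1.78, 2.88, 3.59 and 2.08 (SE 0.45), and Cdkn1a (p21) rose at 12 hr (0.96) and 24 hr (1.21). Ccnd1, cyclin D1, fell at 2 hr (−0.82) and 4 hr (−1.07).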

How the data were processed

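The authors amplified and labeled total RNA, hybridized 10 arrays, and extracted intensities with the robust multichip average (RMA, version not given in the sources used here). The deposited intensities are linear, with array medians between 98.0 and 100.3, and log2 of them was used as it stood. The 57 array controls were set apart. A mean for each time was fitted to every one of 31042 probe sets with limma 3.58.1 (R 4.3.3; lmFit, 5 residual degrees of freedom), with variances moderated by eBayes (prior SD 0.116 on log2, on 3.69 degrees of freedom), and p was adjusted by Benjamini-Hochberg over all probe sets (two-sided, called under 0.05). The script was tested on simulated arrays. "All probe sets" is the background of the counts. No such share was counted for the alternatives or for calls at any probe set of a gene.

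The members and gene lists were chosen with earlier results of these data known. Any member may be named. Values of every array are given for Ccnb1, Cdk1, Plk1, Mki67 and Top2a and for the 2 largest called rises and falls in each contrast with 0 hr and late against early, and those of Ube2c, Ccnb2, Pttg1, Cenpf, Kif11, Hmmr, Ect2 and second probe sets of Mad2l1 and Hmmr were added after they were seen. Of the promoters, those of called or central members with different motif arrangements were printed. From other lists the called genes with the 3 largest changes were named, and members of counts up to 5. Tried as alternatives were the groups of a contrast alone, unadjusted p, the analysis of variance of the study's methods (unadjusted P under 0.05), another variance prior, quantile normalization, no dim probe sets, a replicate block, array weights, all probe sets of a gene, and each array left out. Python 3.11.15 with matplotlib 3.10.9 drew the figures. The study's miRNA measurements were not analysed here.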

Additional observations from a re-analysis of the deposited data

Results flagged for a closer look

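A difference between time points that itself passed limma's adjusted p under 0.05 marks the results in this part. With 2 arrays per time point no array could be tested as an outlier. Between 24 hr and 12 hr this held for Racgap1 (0.89), which did not pass without 24 hr replicate 1 (0.86), 24 hr replicate 2 (0.91) or 12 hr replicate 2 (0.80). Between the late (12 and 24 hr) and the early (2 and 4 hr) time points it held for 23 of the 37 genes. Among cyclins and kinases these were Ccna2 (−1.06), Ccnb1 (−0.66), Plk1 (−0.37), Ttk (−0.46), Melk (−0.72) and Pbk (−0.81). The others of regulated proteolysis and the checkpoint were Ube2c (−0.32) and Bub1b (−0.46). At the kinetochore and in the passenger complex they were Cenpa (−0.30), Cenpe (−0.63), Cenpf (−0.71), Nuf2 (−0.65), Aurkb (−0.52), Birc5 (−0.53) and Incenp (−0.50). On the spindle and in cytokinesis they were Kif11 (−0.75), Nusap1 (−0.55), Dlgap5 (−0.40), Prc1 (−0.62) and Ect2 (−0.68), and the remaining ones were Top2a (−0.73), Mki67 (−0.87) and Cdca3 (−0.88). The late and early arrays lie in different runs, so run and phase cannot be told apart here.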

How the results depend on the processing

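The numbers below are genes called of 37, and no alternative turned the direction of a called gene. Shares of all probe sets were not counted for the alternatives. At 2 hr 11 genes were called, against 22 at unadjusted p, 23 by the methods' analysis of variance at unadjusted P, 20 with only the 0 and 2 hr arrays in the fit, and 2 to 17 with 1 array left out. At 4 hr the 11 calls became 21 at unadjusted p and 3 to 24 with 1 array left out. At 12 hr the 0 calls became 4 at unadjusted p, 9 by analysis of variance, 10 with only the 0 and 12 hr arrays, 4 with array weights, and 1 each (Ube2c) with a trended and robust prior, with quantile normalization, without the dimmest 1 in 3 probe sets (no member was dropped) and with the mean of all probe sets of a gene, and 0 to 2 with 1 array left out. At 24 hr the 3 calls became 7 at unadjusted p, 1 by analysis of variance, 6 with array weights, and 1 to 9 with 1 array left out. For 4 hr against 2 hr the 0 calls became 1 at unadjusted p, and stayed 0 with any array left out. For 24 hr against 12 hr the 1 call became 5 at unadjusted p, 2 with array weights, and 0 to 4 with 1 array left out. Late against early the 23 calls became 4 by the analysis of variance, which there tests any difference among the 4 time points, and 14 to 26 with 1 array left out. The cause of these shifts was not tested, beyond the fewer arrays in the omissions and the missing adjustment at unadjusted p. A time point left with 1 array is assumed to vary like the others. Of the 49 calls 8 held under all 19 alternatives.

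Replicate numbers did not pair the samples: deviations of replicates correlated between 2 and 4 hr (r = 0.33), and at −0.15 to 0.00 otherwise. With the replicate number as a block 10 genes were called at 2 hr, 10 at 4 hr, 0 at 12 hr, 4 at 24 hr, 0 for 4 hr against 2 hr, 1 for 24 hr against 12 hr, and 22 late against early. Precision is limited by having 2 arrays at each time.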
